A study of Mus musculus with 12 samples.

Results

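The transcripts of 10 immediate early genes, Fos, Fosb, Jun, Junb, Egr1, Egr2, Ier2, Ier3, Nr4a1 and Arc, were followed library by library in lungs of newborn mice. They were taken as a given list of gene symbols from a raw count table of 23478 genes. All 10 were listed, and all 10 passed the filter on low counts that left 15761 genes to test. C57/Bl6 mice received an intraperitoneal injection on day 0 of either saline or aurothioglucose (ATG, a gold compound) at 25 mg/kg. They were then kept for 72 h in room air or in hyperoxia, an atmosphere of more than 95% oxygen. The 4 groups were saline room air, ATG room air, saline hyperoxia and ATG hyperoxia, with 3 libraries each. Every mouse had an injection, and the controls are saline-injected. RNA came from whole lungs from which the lavage fluid had been removed, so the table holds no uninjected animal and no separated cell type. In such bulk tissue, fewer cells of a type and less RNA per cell cannot be told apart.

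Immediate early genes are transcribed within minutes of a stimulus, without new protein synthesis, from promoters that serum response factor, ternary complex factors and CREB hold ready. Growth factors, calcium, stretch, oxidants and the handling of a tissue all switch them on, and their transcripts are short-lived. Many of their products are transcription factors: FOS and JUN proteins pair to form AP-1, and EGR proteins and NR4A1 bind their own sites in later-responding genes.

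Stretches just upstream of the transcription start are shown for some of the members, since motifs read by those factors can lie there. Sites further upstream or elsewhere in a gene were not searched, so a motif without a match here may lie outside the stretch. A stretch was at hand for 7 of the 10 members, all but Egr1, Ier2 and Arc. The stretches shown come from RefSeq on the mouse build GRCm38.p6. Each covers the 250 bases before a start, read 5′ to 3′ on the gene's strand. They are Fos at chr12:85473640-85473889 on the plus strand, Fosb at chr7:19310046-19310295 on the minus strand, Egr2 at chr10:67537619-67537868 on the plus strand (the third of 5 listed starts), Ier3 at chr17:35821463-35821712 on the plus strand and Nr4a1 at chr15:101266596-101266845 on the plus strand. Capitals mark the motif matches described after them.
Fos: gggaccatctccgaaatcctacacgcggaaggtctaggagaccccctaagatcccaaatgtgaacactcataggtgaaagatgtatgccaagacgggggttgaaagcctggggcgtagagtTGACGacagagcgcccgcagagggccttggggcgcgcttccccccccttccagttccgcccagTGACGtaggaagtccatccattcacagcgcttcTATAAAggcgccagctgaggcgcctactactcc
Fosb: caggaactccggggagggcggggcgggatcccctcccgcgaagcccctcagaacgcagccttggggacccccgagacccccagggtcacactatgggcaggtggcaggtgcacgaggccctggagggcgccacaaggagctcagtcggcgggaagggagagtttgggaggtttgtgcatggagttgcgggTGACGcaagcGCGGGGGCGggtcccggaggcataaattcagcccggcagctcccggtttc
Egr2: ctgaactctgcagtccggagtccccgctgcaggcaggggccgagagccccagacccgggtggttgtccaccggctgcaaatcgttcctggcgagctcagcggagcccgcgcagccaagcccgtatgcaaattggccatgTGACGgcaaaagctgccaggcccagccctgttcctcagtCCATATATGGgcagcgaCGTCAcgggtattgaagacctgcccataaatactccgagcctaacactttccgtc
Ier3: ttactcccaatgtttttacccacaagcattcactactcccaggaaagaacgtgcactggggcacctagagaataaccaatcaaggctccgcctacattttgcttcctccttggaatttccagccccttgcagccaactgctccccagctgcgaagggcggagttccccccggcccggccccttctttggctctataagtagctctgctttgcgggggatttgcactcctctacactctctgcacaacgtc
Nr4a1: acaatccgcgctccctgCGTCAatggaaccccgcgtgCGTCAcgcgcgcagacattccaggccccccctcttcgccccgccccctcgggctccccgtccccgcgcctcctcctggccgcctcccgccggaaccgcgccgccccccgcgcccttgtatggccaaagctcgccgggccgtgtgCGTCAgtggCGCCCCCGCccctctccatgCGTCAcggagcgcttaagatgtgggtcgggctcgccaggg

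Motifs were searched by their letters on both strands, except the TATA box TATAAA, which was searched on the sense strand only. Nr4a1 held 4 matches to the short cyclic AMP response motif TGACG, all written as CGTCA on this strand. Of 32851 promoters of this length outside chromosome 18, 17.8% held at least 1 match to TGACG, and 226 (0.688%) held 3 or more. Fos and the Egr2 stretch shown held 2 matches each, and Fosb and Junb 1 each. This motif was added after the sequences had been seen. Egr2 also held a serum response element (CArG box), CCATATATGG, which 1.47% of promoters have. Fosb and Nr4a1 each held an EGR site, GCGNGGGCG, found in 4.70% of promoters. Fos held a TATA box starting at position -33 from the transcription start, a motif found in 7.59%. The full cyclic AMP response element TGACGTCA (1.55% of promoters) and the AP-1 site TGANTCA (6.75%) had no match in the promoters of these 7 genes. Ier3 and Jun matched none of the motifs. No match overlapped another, and a match describes letters only.

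The libraries held between 14331749 and 20486735 counts in total, with the hyperoxia groups at 16490223 or more and the room air groups at 17368904 or less. Lung markers were present in every library: Sftpc, the type 2 cell surfactant gene, spanned 5459 to 7792 CPM (counts scaled to library size, CPM, with TMM factors), Ager of type 1 cells 367 to 665 CPM and Cdh5 of endothelium 964 to 1339 CPM. Markers of tissue next to the lung were uneven. The 9 cardiomyocyte markers summed to 7044 CPM in ATG hyperoxia 2 and 3190.3 CPM in saline hyperoxia 2, while the remaining 10 spanned 426 to 984 CPM. No cardiomyocyte marker was at 0 in any library. The 7 skeletal muscle markers summed to 359 CPM in saline hyperoxia 1 against 20.5 to 62.3 CPM elsewhere, and the 7 thymocyte markers to 75.1 CPM in saline hyperoxia 2 against 3.25 to 32.2 CPM (Rag2 was at 0 in 1 library, Dntt in 3 and Ptcra in 6). Sums of other markers moved with exposure in part. The 5 type 1 cell markers summed to 756 to 946 CPM in saline room air and 959 to 1186 CPM in saline hyperoxia, and to 870.3 to 1099.6 CPM in ATG room air and 1076 to 1231 CPM in ATG hyperoxia, so the exposures overlapped after ATG and not after saline. The 8 neutrophil markers summed to 90.7 to 133 CPM and 66.5 to 240.0 CPM after saline, and to 99.2 to 199 CPM and 209 to 229 CPM after ATG, with overlap after saline and none after ATG. The 8 neuron and Schwann cell markers summed to 83.6 to 99.5 CPM and 54.1 to 77.9 CPM after saline, and to 73.9 to 91.8 CPM and 58.1 to 75.0 CPM after ATG. The part of these cell types in the members' differences was not tested. By Xist and Y-linked genes, saline room air was 3 males, ATG room air and saline hyperoxia 1 male and 2 females each, and ATG hyperoxia 2 males and 1 female.

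Per kilobase of exon, Jun was the most abundant of the 10 at a mean of 71.0 CPM per kb over the 12 libraries, and Fosb the least at 0.324 CPM per kb. Ier3 followed Jun at 44.6, then Egr1 at 38.3, Nr4a1 at 16.6, Ier2 at 14.8, Fos at 7.50, Junb at 5.42, Egr2 at 2.42 and Arc at 0.437 CPM per kb. The order differed by group: in saline hyperoxia Egr1 (63.2 CPM per kb) stood above Ier3 (52.6), and in saline room air Ier2 (12.8) stood above Nr4a1 (5.39). The ranges over libraries of neighbours in this order overlapped in every case except Egr2 (1.59 to 4.10 CPM per kb) and Arc (0.134 to 0.770 CPM per kb). Arc, a cytoskeletal protein best known from synapses, was counted only 6 to 36 times a library, and Fosb 12 to 66 times; Jun was counted 2671 to 5163 times and Egr1 1013 to 6565 times.

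Within the AP-1 family, Fos rose with hyperoxia after saline, and Fosb, Jun and Junb did not pass in either pair of groups. Fos, a partner of JUN proteins in AP-1 and a gene of chromosome 12 (85473890 to 85477274), read 8.08, 15.0 and 9.42 CPM in saline room air and 26.3, 15.5 and 37.5 CPM in saline hyperoxia. It read 6.91, 18.6 and 17.2 CPM in ATG room air and 23.5, 18.6 and 15.0 CPM in ATG hyperoxia. The saline groups stayed apart by the narrow gap between saline room air 2 and saline hyperoxia 2, and the ATG groups overlapped. Fos rose 2.44-fold after saline (log2 1.29, SE 0.36, edgeR quasi-likelihood adjusted p = 0.0386, n = 3 per group) and differed by log2 0.42 after ATG (SE 0.36, adjusted p = 0.509). The difference between these effects was itself tested and did not pass (log2 -0.87, SE 0.51, 95% interval -1.95 to 0.22, adjusted p = 1.00).

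The Fos call after saline rested on single libraries: the adjusted p was 0.141 without saline room air 1, 0.143 without saline room air 3, 0.0802 without saline hyperoxia 1 and 0.170 without saline hyperoxia 3. It was also lost with limma-voom (adjusted p = 0.0616). The log2 difference stayed between 0.95 and 1.30 in these fits.

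Fosb, a relative of FOS (chromosome 7, 19302696 to 19310118), read 1.10, 1.37 and 1.32 CPM in saline room air against 1.65, 2.12 and 3.84 CPM in saline hyperoxia, without overlap. In ATG room air it read 1.51, 0.807 and 2.16 CPM, and in ATG hyperoxia 2.65, 3.70 and 2.07 CPM, where the lowest library lay inside the room air range. The log2 differences of 1.00 (SE 0.45) after saline and 0.90 (SE 0.44) after ATG did not pass (adjusted p = 0.204 and 0.226). Their average over both injections did, at log2 0.95 (SE 0.32, adjusted p = 0.0438), 1.93-fold, and passed in 10 of 21 other settings. It was lost with limma-voom (adjusted p = 0.0660) and without both heart-rich libraries, among others.

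Jun, which pairs with FOS proteins or with itself (chromosome 4, 95049036 to 95052222), had readings that overlapped among saline room air, ATG room air and saline hyperoxia. ATG hyperoxia lay wholly above each of these groups, though only narrowly above ATG room air. The readings were 224, 209 and 168 CPM in saline room air, 192, 242 and 246 CPM in ATG room air, 237, 183 and 232 CPM in saline hyperoxia and 283, 246 and 254 CPM in ATG hyperoxia. The 95% interval of the hyperoxia difference ran from log2 -0.15 to 0.39 after saline and from -0.07 to 0.48 after ATG. Junb, a JUN relative that acts more weakly on many AP-1 sites (chromosome 8, 84976909 to 84978748), read 9.86, 10.2 and 7.91 CPM in saline room air and 15.1, 10.3 and 19.5 CPM in saline hyperoxia. It read 8.09, 15.5 and 10.2 CPM in ATG room air and 16.9, 12.3 and 13.7 CPM in ATG hyperoxia, with overlap. Its log2 differences were 0.68 after saline (SE 0.26, adjusted p = 0.118) and 0.34 after ATG (SE 0.25, adjusted p = 0.436). Jun shares exons with the antisense gene Junos, and Junb with Prdx2 on the opposite strand. No source used here says whether counting used strand, so reads of these pairs cannot be told apart and both values are uncertain.

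**Figure D1:**
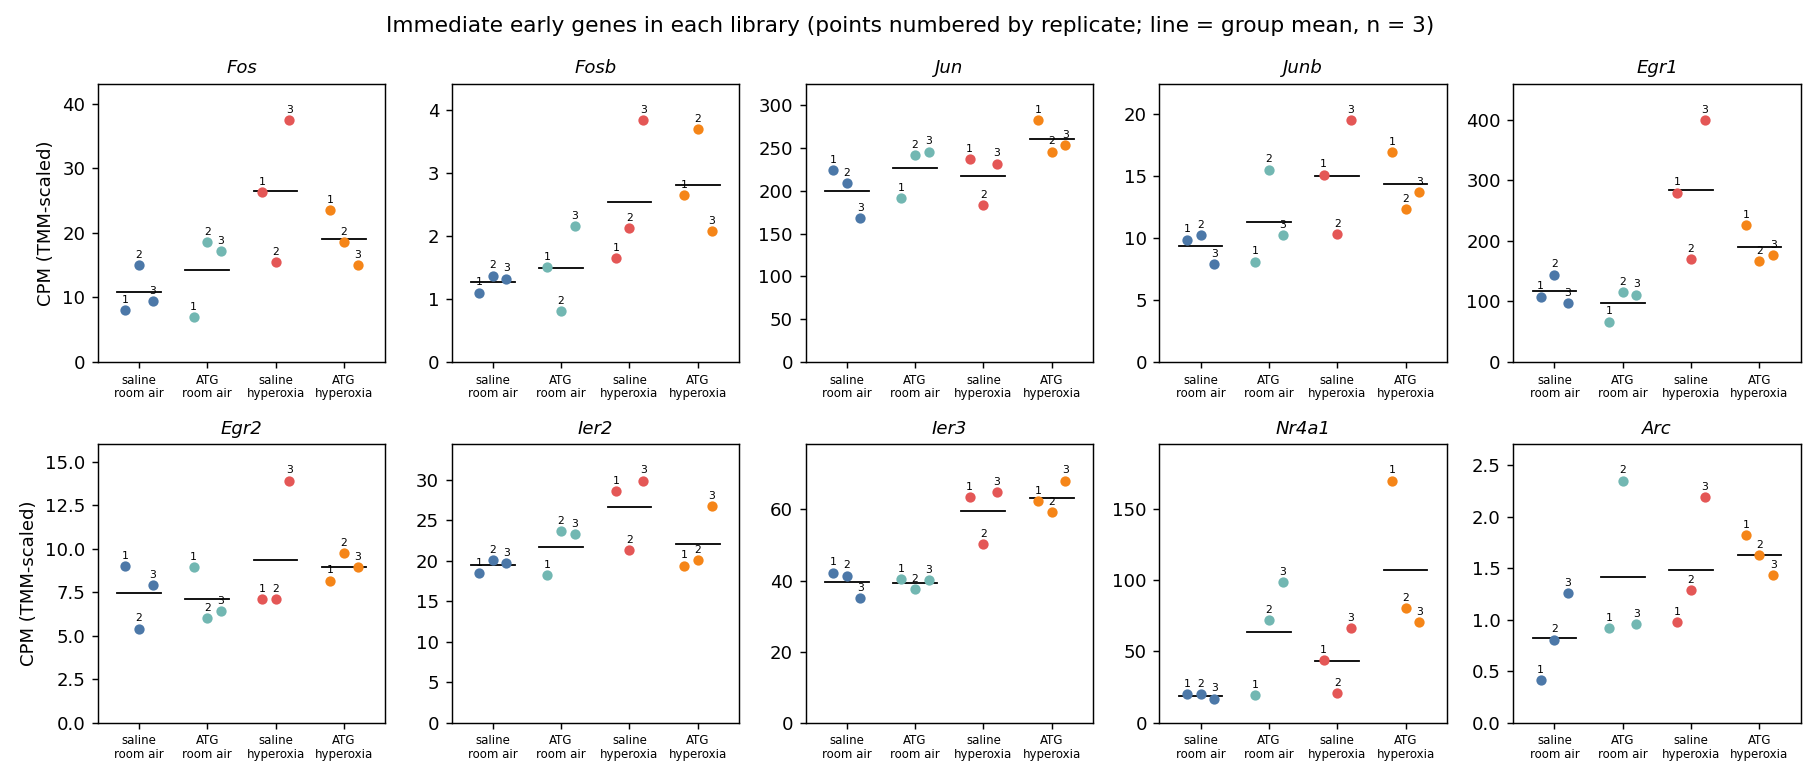
Scaled CPM of each of the 10 genes (vertical axis from 0) in the 12 libraries, by group (horizontal axis); each point is a library, numbered by replicate, and each line is a group mean of 3. Ier3 and Egr1 stand higher in all hyperoxia libraries than in all room air libraries, and Nr4a1 is spread from 19.2 to 98.8 CPM within ATG room air alone.

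Of the EGR zinc-finger factors, Egr1 rose with hyperoxia after either injection. Egr1, a short-lived activator of growth, matrix and clotting genes (chromosome 18, 34861207 to 34864956), read 108, 144 and 97.5 CPM in saline room air and 279.8, 170.3 and 399.7 CPM in saline hyperoxia. It read 66.6, 115 and 111 CPM in ATG room air and 226, 167 and 177 CPM in ATG hyperoxia. No room air library reached the lowest hyperoxia library. The rise was 2.43-fold after saline (log2 1.28, SE 0.26, adjusted p = 0.00740) and 1.94-fold after ATG (log2 0.96, SE 0.26, adjusted p = 0.0281), and the difference of these effects had an interval from log2 -1.11 to 0.46. The call after ATG was lost without ATG room air 1 (adjusted p = 0.121), ATG room air 3 (0.0553) or ATG hyperoxia 1 (0.0978), and the call after saline held in every setting tried. Egr2, a relative known from Schwann cells and lymphocytes (chromosome 10, 67534469 to 67542188), spanned 5.40 to 8.97 CPM in room air and 7.10 to 13.9 CPM in hyperoxia over both injections. Only saline hyperoxia 3 stood above the room air range by more than 1 CPM, and the log2 differences were 0.34 (SE 0.28) and 0.33 (SE 0.28) with adjusted p of 0.520 and 0.504.

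Ier3 rose with hyperoxia after both injections. This gene, which encodes a small protein linked to cell survival and stress signalling (chromosome 17, 35821713 to 35822911), read 42.2, 41.4 and 35.0 CPM in saline room air and 40.3, 37.6 and 40.1 CPM in ATG room air. In hyperoxia it read 63.4, 50.2 and 64.8 CPM after saline and 62.4, 59.2 and 68.1 CPM after ATG. All hyperoxia libraries lay above all room air libraries. It rose 1.51-fold after saline (log2 0.59, SE 0.11, adjusted p = 0.00511) and 1.61-fold after ATG (log2 0.68, SE 0.11, adjusted p = 0.00122), and both calls held in each of 22 other settings. Ier2, a nuclear protein of less defined role (chromosome 8, 84661331 to 84662852), read 18.5, 20.1 and 19.7 CPM in saline room air and 28.6, 21.3 and 29.9 CPM in saline hyperoxia. After ATG its ranges were 18.2 to 23.7 CPM in room air and 19.4 to 26.8 CPM in hyperoxia, which overlapped. The log2 difference was 0.45 after saline (SE 0.16, adjusted p = 0.107) and 0.03 after ATG (SE 0.16, adjusted p = 0.941), with an interaction of -0.42 (SE 0.23, adjusted p = 1.00).

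Nr4a1, an orphan nuclear receptor induced in macrophages, endothelium and T cells (chromosome 15, 101253902 to 101274795), ran from 16.8 to 169.7 CPM. It read 20.1, 19.8 and 16.8 CPM in saline room air and 43.7, 20.6 and 66.1 CPM in saline hyperoxia. After ATG it read 19.2, 72.0 and 98.8 CPM in room air and 169.7, 80.5 and 70.4 CPM in hyperoxia. Saline room air was tight, whereas ATG room air 1 sat at the saline level and the other two libraries of its group were several times higher. Hyperoxia differed from room air by log2 1.20 after saline (SE 0.50, adjusted p = 0.169) and 0.75 after ATG (SE 0.48, adjusted p = 0.357). Arc (chromosome 15, 74669081 to 74672570) spanned 0.411 to 2.35 CPM in room air and 0.978 to 2.19 CPM in hyperoxia, and neither hyperoxia difference passed (adjusted p = 0.401 after saline and 0.853 after ATG).

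**Figure D2:**
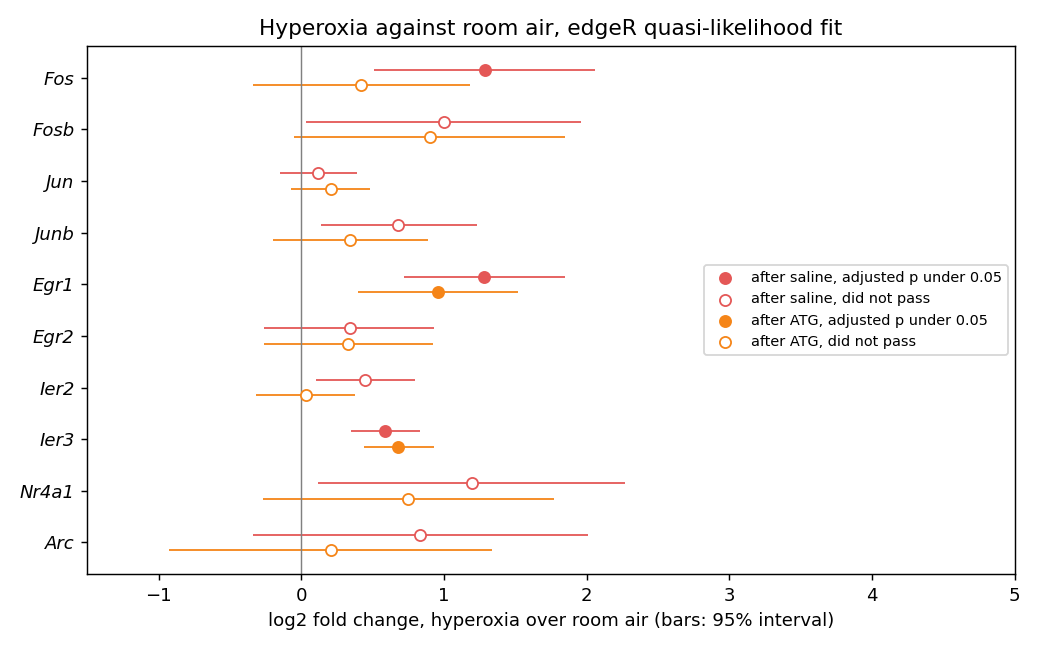
Log2 fold change of each gene, hyperoxia over room air (horizontal axis), after saline and after ATG, with 95% intervals from the edgeR fit; filled points passed an adjusted p of 0.05. The points of all 10 genes lie to the right of 0, and the filled ones are Fos after saline and Egr1 and Ier3 after both injections.

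Counted over the list, 3 of 10 members rose and 0 fell with hyperoxia after saline, where 4.70% of all genes tested rose and 4.50% fell. The 10 log2 differences were all above 0, with a median of 0.76 against -0.00 over all genes tested, and 7 members had saline hyperoxia libraries wholly above saline room air, which held for 14.6% of genes (14.9% lay wholly below). After ATG, 2 of 10 rose and 0 fell, where 5.41% of genes rose and 6.25% fell. All 10 differences were again positive, with a median of 0.38 against 0.00, and 3 members (Jun, Egr1 and Ier3) lay wholly above room air (Jun by a margin under 1 CPM), against 13.7% of genes (13.9% wholly below). Averaged over both injections, Fos, Fosb, Egr1 and Ier3 rose and 0 fell (4 of 10, against 11.0% of genes rising and 11.3% falling), with a median of 0.58. Junb (log2 0.51, SE 0.18, adjusted p = 0.0542) and Nr4a1 (log2 0.98, SE 0.35, adjusted p = 0.0570) missed the threshold narrowly.

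These counts moved with single libraries. Without saline hyperoxia 2, 5 members rose after saline (Ier2 and Junb joining), and without both heart-rich libraries 6 did (Nr4a1 joining as well), with Fos at log2 1.57 and Egr1 at 1.56. Saline hyperoxia 2 was the lowest of its group for 7 members, among them Fos, Egr1, Ier2, Junb and Nr4a1. Leaving it out widens their differences by itself. After ATG, 1 member (Ier3) rose without ATG room air 1, ATG room air 3 or ATG hyperoxia 1. In the average, 2 members (Egr1 and Ier3) rose without saline room air 1, saline room air 3, saline hyperoxia 3 or ATG hyperoxia 1, and 6 without saline hyperoxia 2. Of the averaged calls, Fosb lost its own without any of 8 libraries: saline room air 1, 2 or 3, ATG room air 1 or 2, saline hyperoxia 3 and ATG hyperoxia 1 or 2 (adjusted p 0.0638 to 0.124). With sex as a covariate 4 members rose after saline, Junb with Fos, Egr1 and Ier3. No share of all genes passing in these fits stands beside these counts, so an increase is not read as particular to the members.

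For ATG against saline, no member passed. In room air 0 of 10 passed and 0% of all genes did with edgeR. DESeq2 called 17 genes there and limma-voom 0, and no member was among them. At an unadjusted p under 0.05 there was 1 member, Nr4a1, against 6.02% of genes. Nr4a1 was 3.35-fold higher on the fitted means (log2 1.75, SE 0.51, adjusted p = 0.782), with ATG room air 1 inside the saline range. No member's room air groups were apart, against 6.26% of genes wholly higher and 5.72% wholly lower after ATG. In hyperoxia 0 of 10 passed, against 0.00634% of genes (1 gene), 10 genes with DESeq2 and 3 with limma-voom, again with 0 members. Nr4a1 (log2 1.30, SE 0.48, adjusted p = 0.767) and Egr1 (log2 -0.58, SE 0.26, adjusted p = 0.852) had an unadjusted p under 0.05, against 5.69% of genes. Jun and Nr4a1 lay wholly above saline, against 5.55% of genes (5.54% wholly below), and no member lay wholly below.

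Averaged over both exposures, a contrast added after the data had been seen, 0 members passed, against 0.0444% of genes (7 genes), 96 genes with DESeq2 and 9 with limma-voom. The unadjusted p was under 0.05 for Nr4a1, Jun and Egr1, against 8.47% of genes. Nr4a1 was 2.87-fold higher (log2 1.52, SE 0.35, adjusted p = 0.174), Jun 1.17-fold higher (log2 0.22, SE 0.09, adjusted p = 0.518) and Egr1 lower (log2 -0.42, SE 0.18, adjusted p = 0.570). Without ATG room air 1, the library of lowest Nr4a1 after ATG, Nr4a1 passed at log2 1.73 with an adjusted p of 0.0289. Leaving out the lowest ATG library widens the difference by itself, so this fit adds no support for one. Nr4a1 was higher after ATG than the highest saline library of the same exposure in 5 of 6 ATG libraries. The interaction of ATG and hyperoxia was passed by 0 members and 0% of genes, DESeq2 and limma-voom also calling 0. At an unadjusted p under 0.05 it held 0 members, against 2.95% of genes.

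In saline hyperoxia 3 all 10 members stood above their group mean on the log2 scale and 9 were the highest of the group. In saline hyperoxia 2, 0 did and 7 were the lowest. Nr4a1 there lay at -0.92 from its group mean, Fos at -0.68, Egr1 at -0.65 and Junb at -0.48, while in saline hyperoxia 3 the same genes lay at 0.76, 0.59, 0.58 and 0.42. Saline hyperoxia 2 is also the library with more cardiomyocyte and thymocyte transcripts (3190.3 and 75.1 CPM). ATG hyperoxia 2, with the most cardiomyocyte transcripts, had 3 members above its group mean. The part of these tissues in the members' levels was not tested. How many of all genes stood above the group mean, or highest or lowest of the group, was not counted in any library. Such patterns are therefore not read as particular to the members, here or in the room air libraries described next.

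In ATG room air 1, 7 of 10 members were the lowest of the group, led by Nr4a1 at -1.42 and Fos at -0.90, and Egr2 was the highest at 0.35. Saline room air 2 had 9 members above its mean, all except Egr2 at -0.42. No label gives the order or manner of dissection, so the time from death to freezing and its part in these patterns was not tested.

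**Figure D3:**
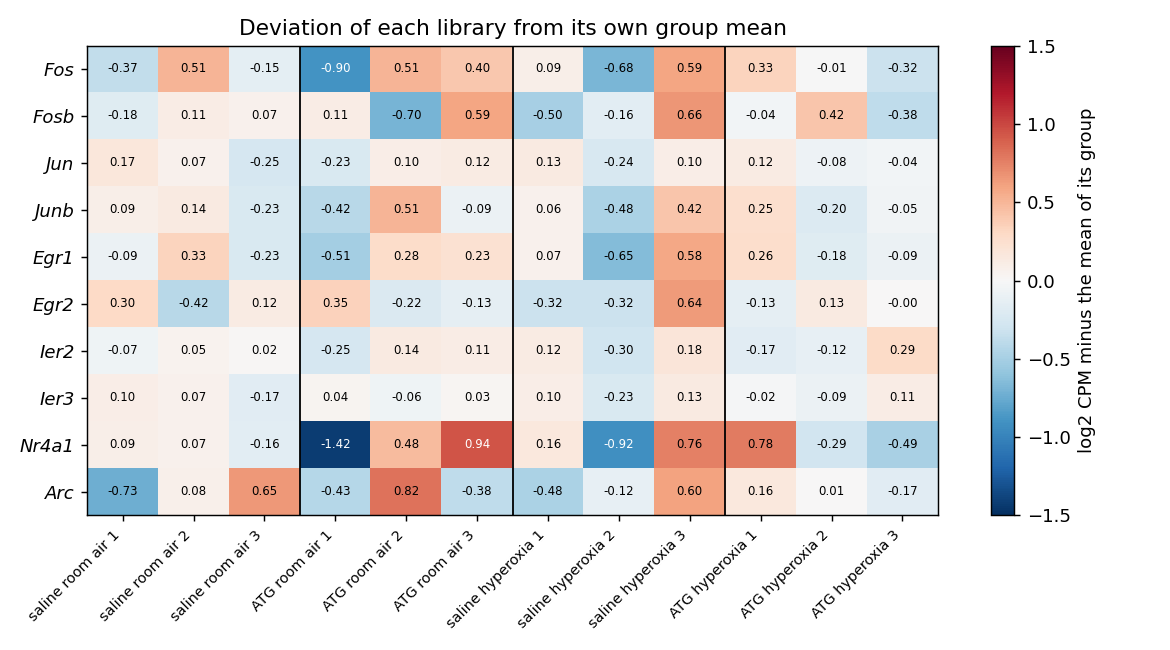
Log2 CPM of each gene in each library minus the mean of that library's group (colour and printed value); rows are the 10 genes, columns the 12 libraries, and vertical lines part the groups. The columns of saline hyperoxia 2 and saline hyperoxia 3 are below 0 and above 0 in all 10 rows, and the darkest cell is Nr4a1 in ATG room air 1 at -1.42.

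Scatter between libraries of a group was then set against other genes. The biological coefficient of variation from edgeR was 40.4% for Nr4a1, 39.7% for Arc, 34.7% for Fosb, 30.5% for Fos and 22.5% for Egr1, and 12.1% for Jun and 10.7% for Ier3. The median over members was 23.3%, against 15.0% over all genes tested, and 7 of 10 lay above that median. Since scatter falls with level, each member was also ranked among genes within 0.5 log2 units of its mean level. Nr4a1 stood above 99.6% of 2297 such genes, Egr1 above 99.1% of 1119 and Fos above 98.0% of 2472. Arc (40.5%), Fosb (47.4%) and Ier3 (50.3%) lay in the middle of genes of their level. The figures were 89.6% for Jun, 89.5% for Junb, 83.1% for Egr2 and 67.3% for Ier2.

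**Figure D4:**
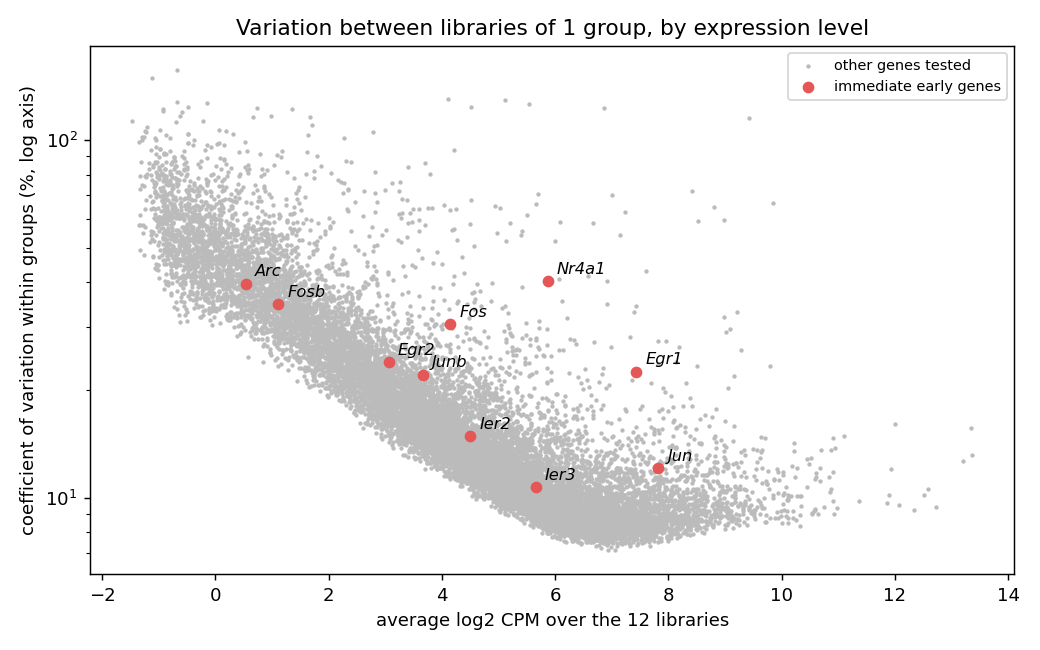
Coefficient of variation within groups (percent, log axis) against average log2 CPM over the 12 libraries, for the genes tested (grey) and the 10 members (red, named). Nr4a1, Egr1 and Fos lie along the upper edge of genes at their level, and Arc, Fosb and Ier3 lie within the main band.

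The genes whose deviations from the group means were most like those of the members' mean were sought among 11499 genes with a mean of at least 5 CPM. They were Cul2, a ubiquitin ligase scaffold (Pearson r = 0.96), Cftr, the epithelial chloride channel (0.94), Fam96b, Hars and Slu7 (0.91 each). For Nr4a1 alone, a comparison added after its values had been seen, they were Dusp1 (0.93), Klf4 (0.92), Cul2 (0.90), Tm4sf1 and Spry1 (0.89 each). These are correlations over the deviations of 12 libraries from their group means, which leave 8 degrees of freedom. Genes read from the same library also share its depth. The members' mean deviated most in saline hyperoxia 2 (-1.28) and saline hyperoxia 3 (1.28), so these libraries weigh most in its correlations. The genes were chosen as the highest of many, and the values describe likeness only.

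Other genes of the response were read from 5 lists of 93 distinct genes tested, with Atf3 and Maff also in the AP-1 list and Srf also among the upstream regulators beside the list of other primary response genes. After saline, 2 of 11 further AP-1 genes rose with hyperoxia, 0 of 6 genes of the EGR and NR4A families and their corepressors, 7 of 38 other primary response genes (1 fell) and 3 of 14 feedback genes (1 fell). None of 27 upstream regulators and kinases passed. The lists' median log2 differences were 0.33, 0.48, 0.14, 0.15 and 0.04. After ATG, 2 of 11, 0 of 6, 6 of 38, 1 of 14 and 1 of 27 rose, and 0, 0, 0, 1 and 1 fell, with medians of 0.42, 0.39, 0.21, 0.10 and -0.05. Over all 5 lists, 12 of 93 genes (12.9%) passed after saline, against 9.19% of all genes tested, or 6 without saline room air 3 or saline hyperoxia 3. After ATG 10 (10.8%) passed, against 11.7% of all genes, or 6 without ATG room air 1. Averaged over both injections 22 (23.7%) passed, against 22.4% of all genes. These shares count both directions, and those after ATG and in the average were near the shares of all genes. By direction, 3 of 11, 1 of 6, 11 of 38, 4 of 14 and 2 of 27 rose in the average. The genes that fell were 0, 0, 1, 1 and 1. Of all genes tested, 11.0% rose and 11.3% fell in the average, 5.41% and 6.25% after ATG, and 4.70% and 4.50% after saline.

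Ptgs2, the inducible cyclooxygenase, read 18.7, 16.9 and 10.8 CPM in saline room air and 51.6, 38.7 and 73.8 CPM in saline hyperoxia, without overlap. It rose by log2 1.82 after saline (SE 0.22, adjusted p = 2.10e-04) and 1.86 after ATG (SE 0.22, adjusted p = 1.39e-04). Bhlhe40, a repressor of the circadian clock, rose by 0.79 and 0.81 (adjusted p = 0.00242 and 0.00120), and Ier5 by 0.52 and 0.47 (adjusted p = 0.00285 and 0.00340). These 3 genes passed after both injections in every setting tried. Atf3, a stress-induced AP-1 partner, read 5.96, 4.03 and 6.15 CPM in saline room air and 9.88, 11.2 and 15.5 CPM in saline hyperoxia, and rose by 1.18 after saline (adjusted p = 0.0368) and 1.22 after ATG (adjusted p = 0.0207). Its call after saline was lost without saline room air 1, 2 or 3 or saline hyperoxia 2 or 3 or with limma-voom (adjusted p up to 0.143). That after ATG was lost without ATG room air 1 or ATG hyperoxia 1, with sex as a covariate and with only the samples compared (up to 0.0708).

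Among the feedback genes, Zfp36, which binds AU-rich elements and speeds the decay of short-lived mRNAs, rose by log2 0.76 after saline (SE 0.14, adjusted p = 0.00373) and differed by 0.43 after ATG (adjusted p = 0.0559). Dusp10, a phosphatase of JNK and p38, fell by 0.83 after saline (SE 0.17, adjusted p = 0.00802) and by 0.60 after ATG (SE 0.17, adjusted p = 0.0358). The call after ATG held in 10 of 22 other settings; it was lost without saline room air 1, 2 or 3, ATG room air 1 or 3, saline hyperoxia 3 or ATG hyperoxia 2 or 3, without the heart-rich or the heart- or muscle-rich libraries, with sex as a covariate and with only the samples compared (adjusted p up to 0.180). Btg2, an antiproliferative early gene, rose by 0.65 after saline (adjusted p = 0.00376) and differed by 0.38 after ATG (adjusted p = 0.0512). Dusp1, the phosphatase that ends MAP kinase signals, did not pass after saline (log2 0.39, adjusted p = 0.499) or ATG (log2 -0.26, adjusted p = 0.647). Its lowest libraries were saline room air 3 and saline hyperoxia 2 at 174 CPM each and ATG room air 1 at 175 CPM. Saline hyperoxia 2 and ATG room air 1 were also the lowest of their groups for Nr4a1 and Fos, and saline room air 3 for Nr4a1. Srf, the factor that binds CArG boxes, ran from 58.5 to 99.2 CPM and did not pass (adjusted p = 0.646 after saline and 0.216 after ATG).

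Maff, a small MAF protein that pairs with AP-1 and CNC factors, rose by log2 0.55 after saline (adjusted p = 0.0316) and 0.76 after ATG (adjusted p = 0.00340). Its call after saline was lost without saline room air 2 or 3 or saline hyperoxia 1 or 3, without the heart- or muscle-rich libraries, with sex as a covariate and with only the samples compared (adjusted p up to 0.161). Dusp4, a nuclear MAP kinase phosphatase, rose by 0.67 and 0.80 (adjusted p = 0.0370 and 0.0116). Leaving out any of the 6 saline libraries, or the heart- or muscle-rich libraries, or adding sex, ended its call after saline (up to 0.149), and leaving out ATG room air 1 that after ATG (0.0529). Spry2, an inhibitor of receptor tyrosine kinase signals, rose by 0.50 after saline (adjusted p = 0.0263), a call lost without saline room air 1 or 3, saline hyperoxia 1 or 3 or the heart- or muscle-rich libraries (up to 0.0909).

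Among upstream factors after ATG, Crem, of the CREB family, rose by log2 0.47 (adjusted p = 0.0463) and Elk3, a ternary complex factor, fell by 0.32 (adjusted p = 0.0368). These calls held in 8 and 9 of 22 other settings. Crem lost its own without saline room air 2 or 3, ATG room air 1 or 2, saline hyperoxia 3 or any ATG hyperoxia library (adjusted p up to 0.160). Elk3 did so without any saline room air library, ATG room air 1 or 3, saline hyperoxia 3 or any ATG hyperoxia library (up to 0.182). Both were also lost without the heart-rich libraries, without the heart- or muscle-rich libraries, with sex as a covariate and with only the samples compared, and Crem with no filter on low counts (adjusted p = 0.0548). In the average over both injections, Mef2d, a MADS-box factor, rose by 0.30 (adjusted p = 0.0148) and Fosl2 by 0.44 (adjusted p = 0.00877, or 0.0565 without the 3 heart- or muscle-rich libraries). Nr4a3, a relative of Nr4a1 at only 0.186 to 4.88 CPM over the libraries, rose by 1.44 in the average (SE 0.45, adjusted p = 0.0321), in 13 of 21 other settings. It was lost without saline room air 1 or 2, ATG room air 2, saline hyperoxia 3 or ATG hyperoxia 1 or 2, and without the heart-rich or the heart- or muscle-rich libraries (up to 0.0741).

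No gene of these lists passed for ATG against saline with edgeR, in room air, in hyperoxia or averaged. Klf4, a zinc-finger factor of endothelium and epithelium, came nearest. It read 113, 107 and 98.2 CPM in saline room air, 128, 203 and 218 CPM in ATG room air, 119, 104 and 123 CPM in saline hyperoxia and 217, 144 and 161 CPM in ATG hyperoxia. All 6 ATG libraries lay above all 6 saline libraries, and the averaged difference was log2 0.69 (SE 0.12, adjusted p = 0.0614). Fosl2, an AP-1 relative of FOS, differed by 0.55 (SE 0.11, adjusted p = 0.0953) and Atf3 by 0.98 (SE 0.23, adjusted p = 0.183). With DESeq2, Klf4 passed in room air, and 6 genes passed in the average (Atf3, Crem, Fosl2, Klf10, Klf4 and Nr4a2). Without ATG room air 1, 5 list genes passed in the average with edgeR, and without ATG hyperoxia 2, 1. ATG room air 1 was the lowest of its group for Klf4, Atf3, Fosl2 and Crem, so leaving it out widens their differences by itself.

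**Figure D5:**
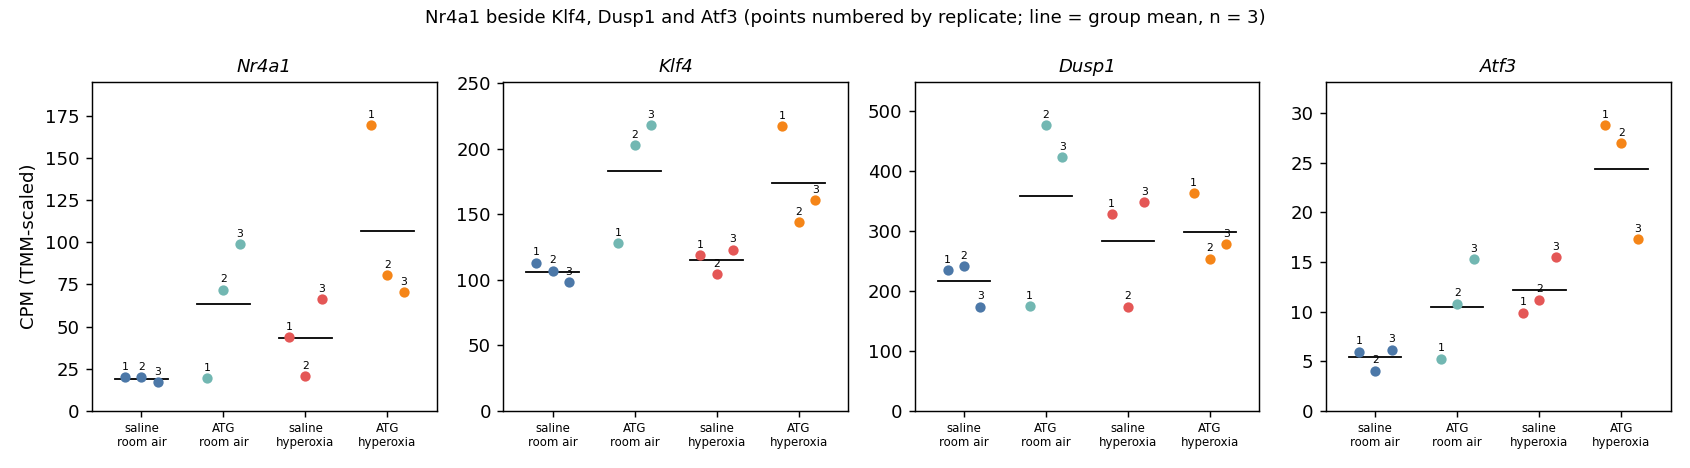
Scaled CPM (vertical axis from 0) of Nr4a1 and of 3 genes of the other lists in each library, by group; points are libraries numbered by replicate and lines are means of 3. ATG room air 1 is the lowest point of its group in all 4 panels, and Klf4 is the gene whose 6 ATG libraries all lie above its 6 saline libraries.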

How the data were processed

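Whole-lung RNA of newborn mice was amplified with NuGEN Ovation V2 and made into 12 Nextera XT libraries, per the labels' protocols. Amplified cDNA can distort levels, most for rare transcripts. The authors deposited raw counts per gene symbol. Bowtie2, Cufflinks, DESeq and mm10 are named in the submitters' processing notes, and no source used here gives their versions or the strand setting. Counts were tested with edgeR 4.0.16 (R 4.3.3): filterByExpr (minimum count 10, minimum total 15), TMM scaling, 1 mean per group over all 12 libraries, glmQLFit and glmQLFTest, two-sided, Benjamini-Hochberg over 15761 genes, threshold 0.05. The 7 contrasts are 2 of hyperoxia, 2 of ATG, the average of each pair and the interaction; the ATG average was added after seeing the data. CPM are TMM-scaled, log2 CPM use a prior count of 2, and exon lengths are from GENCODE M21. Intervals are at 95%.

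All members were named, with the other lists' 4 genes of smallest adjusted p per list and contrast, 6 fixed genes (Dusp1, Atf3, Zfp36, Srf, Btg2, Klf4) and the 5 closest genes. Other genes are named as chosen after their values were seen. The members and lists were chosen with earlier results of these data known. Labels do not say that libraries are separate animals, so p-values measure the spread between these libraries. Replicates of a group differed beyond counting noise. The fit was checked on simulated counts. Alternatives were DESeq2 1.42.0, limma-voom (limma 3.58.1), other scalings, no filter, a replicate block, sex, only the groups compared, and libraries left out. Some list symbols did not match the table (Ccn1, Ccn2, Mrtfa and Mrtfb are present there under older symbols).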

Additional observations from a re-analysis of the deposited data

How the results depend on the processing

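Ier3 passed after both injections and in the average, and Egr1 after saline and in the average, under every alternative tried. Without the 2 libraries rich in heart transcripts 6 members rose after saline. Saline hyperoxia 2, the lowest of its group for 7 members, is among those left out, which widens the differences by itself. Leaving out the 3 libraries rich in heart or skeletal muscle transcripts leaves saline hyperoxia with 1 library. That library is assumed to vary like the others, so no count of members is given for this fit. Leaving out each library in turn, members rising ranged from 2 to 5 after saline, 1 to 2 after ATG and 2 to 6 in the average; members passing for ATG averaged ranged from 0 to 1. Genes of the other lists ranged from 6 to 16, 6 to 14 and 18 to 25 for hyperoxia and from 0 to 5 for ATG averaged. The share of all genes passing does not stand beside the counts with libraries left out, so their changes are not read as particular to these genes. DESeq2 gave 17 list genes after ATG in hyperoxia against room air, 1 for ATG in room air and 6 for ATG averaged, where no filter on low counts gave 2. Over all genes, DESeq2 called 2325, 17 and 96 in these contrasts.

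Signs turned only for differences that had not passed. Leaving out each library in turn, the log2 difference after saline ranged from -0.06 to 0.51 for Egr2. After ATG it ranged from -0.12 to 0.13 for Ier2, -0.01 to 0.80 for Arc, -0.58 to 0.01 for Dusp1 and -0.26 to 0.08 for Klf4. In the average it ranged from -0.09 to 0.21 for Dusp1 and -0.06 to 0.11 for Klf4. Klf4 after ATG was 0.06 and 0.07 without the heart-rich and without the heart- or muscle-rich libraries. Egr1 for ATG in room air was 0.04 with sex as a covariate. The cause was not tested. Labels do not say whether equal replicate numbers pair the libraries. Deviations of same-numbered libraries correlated from -0.16 to 0.28, 2 of 18 pairs over 0.1. Those were saline hyperoxia with ATG hyperoxia, replicate 2 (0.28, the heart-rich libraries) and replicate 3 (0.13). Differently numbered libraries were not compared, so these values cannot decide whether libraries are paired. With a replicate block 2 members rose after saline, Fos at log2 1.30 and adjusted p 0.0505, 2 after ATG and 3 in the average, where Fosb was at adjusted p 0.0526; Dusp4 after saline (0.0532) and Crem after ATG (0.0610) were lost too. Arc at 6 to 36 counts and Fosb at 12 to 66 are the members with the fewest counts.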
